A study of Mus musculus with 2 samples.

Results

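The tripartite motif (TRIM) proteins are a large family of ubiquitin ligases and related proteins, and their genes were compared in mouse back skin after fibroblast growth factor 18 (FGF18) and after saline. The genes were chosen by name: every probe that the array files label Trim followed by a number. This gave 101 probes of 52 genes, out of 41165 probes and 27576 gene names on the array. Of the 52 genes, 40 gave a measured signal in both groups, 2 gave one after FGF18 alone and 10 gave none.

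Both groups were male C3H/HeN mice, 61 days old, whose back hair had been removed 5 days earlier to start anagen, in which follicles grow a new hair. On day 4 of that anagen they were injected under the skin with FGF18 (1 µg) or, as controls, with phosphate-buffered saline (PBS), and full-thickness dorsal skin was taken 24 h later. Each group was read on 1 single-colour Agilent array. According to the design text each array received pooled RNA, whereas the extraction protocol has the mice extracted separately and mentions no pooling. In that protocol 3 mice are named, with no word on whether that holds for each group. One label conflicts: telogen stands in the PBS title, but anagen in that sample's source name and hair cycle entry. With 1 array per group no test was possible, no p-value is given, and precision is limited by the number of arrays. In full-thickness skin, fewer cells of a type and less RNA per cell cannot be told apart. The keratinocyte markers of the labelled tissue were present, with 8 of 8 measured on both arrays.

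A typical TRIM protein carries a RING domain, which recruits a ubiquitin-loaded enzyme, followed by B-box zinc fingers and a coiled coil. The variable C-terminal end chooses the target, so that some members act on viral capsids or on innate immune adaptors, others on chromatin, microtubules or muscle proteins. A branch of the family is known to be induced by interferon in immune cells and in many epithelia.

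Values are given first as the processed signal of each array, in intensity units without scaling between arrays. Summed signals of marker lists are likewise unscaled, whereas medians and folds are scaled. Log2 ratios are FGF18 minus PBS after each array was scaled to its 75th percentile, which subtracts 0.18 from every unscaled log2 ratio. A probe was measured where its spot was well above background, and the ratios of the probes of a gene were averaged. All 16610 genes measured on both arrays had a median log2 ratio of -0.07, so ratios are to be read against that value. Probes present as at least 8 spots gave the technical error between spots. Between spots of such a probe the log2 ratio had an SD of 0.097 at dim signals (up to 448). The SD was 0.041 at middle and 0.026 at bright signals. These SDs are medians over probes and come from spots on the same arrays. They leave out the variation between mice, labellings and hybridizations.

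Across the family the FGF18 array was higher for a few members and lower for none at a fold of 2. Of the 40 measured TRIM genes, 3 (7.50%) were at least 2-fold higher, where 1.54% of all genes were, and 0 were at least 2-fold lower, where 0.987% of all genes were (2.53% in either direction). The 3 were Trim30a, Trim34a and Trim25. Among all genes, 61.0% of those past 2-fold in either direction were higher on the FGF18 array, a share that was 64.1% to 78.5% under the other scalings between arrays and 99.0% with scaling to spike-in probes. At a fold of 1.5, 7 TRIM genes were higher against 3.79% of all genes, and 0 were lower against 4.82%. At a fold of 3, 0 TRIM genes were higher against 0.704% of all genes, and 0 were lower against 0.259%. The median log2 ratio of the 40 was 0.14, and 23 of them lay above 0, where 37.5% of all genes did. Just inside the 2-fold line stood Trim25 at 1.09, and just outside it Trim14 at 0.78 and Trim21 at 0.76.

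**Figure D1:**
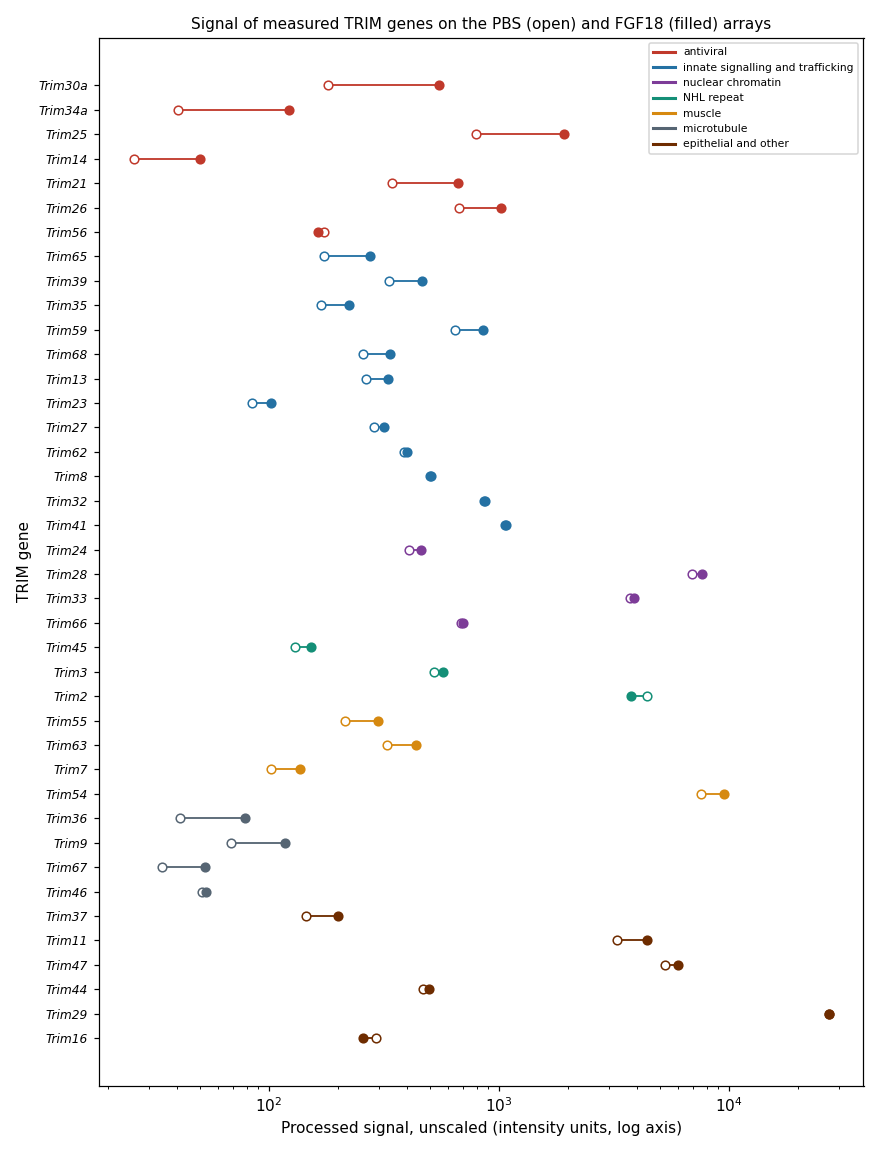
Processed signal of each of the 40 TRIM genes measured on both arrays (log axis, unscaled intensity), with the PBS array as open and the FGF18 array as filled circles, ordered by role group and then by ratio. The widest gaps are those of Trim30a (552 against 180) and Trim34a (122 against 40.5), whereas Trim29 read 27200 on both arrays.

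Trim30a, which in mouse dampens Toll-like receptor signalling by removing the adaptors TAB2 and TAB3, had a signal of 552 after FGF18 and 180 after PBS. This was a 2.70-fold difference, ranked 139 from the top among all 16610 genes. Its 2 probes stood at log2 ratios of 1.39 and 1.47. They differed by 0.079, where the technical SD between spots was 0.041 at the signal of the brighter probe and 0.097 at that of the dimmer one. Trim34a, whose human counterpart TRIM34 acts on retroviral capsids, had a signal of 122 against 40.5, a 2.66-fold difference. Its 2 measured probes were at 1.38 and 1.44, and its remaining probe was not well above background on either array. The Trim34a signals were dim, and normexp background correction with an offset of 50 lowered its log2 ratio from 1.41 to 0.63.

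Trim25 encodes the ligase that ubiquitinates the viral RNA sensor RIG-I. Its mean signal was 1924 against 796, 2.13-fold higher after FGF18, but its probes disagreed. The brighter probe read 8100 against 5070, a log2 ratio of 0.49, and the dimmer one read 457 against 125, a ratio of 1.69. The dimmer probe alone and the mean of both passed 2-fold, whereas with the brighter probe alone Trim25 stood at 0.49. Among the 23 TRIM genes with several probes measured on both arrays, it was the only one whose measured probes were more than 1 apart on the log2 scale, and the median distance between the lowest and highest probe of these 23 genes was 0.14.

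Among the other measured members linked to interferon and antiviral defence, the differences were smaller. Trim21, a cytosolic antibody receptor that targets antibody-coated virus for degradation, had a signal of 662 against 344, 1.70-fold higher by 1 probe. Trim14, which lacks a RING domain and serves as an adaptor at the mitochondrial antiviral complex, read 50.3 against 25.8, 1.72-fold higher. Its PBS signal lay close to the lowest value called well above background on that array, 24.2, and with normexp correction its log2 ratio was 0.23. Trim26, which is known to act on interferon-beta induction through IRF3, was at 0.42, with 3 probes between 0.29 and 0.53 (1024 against 673). Trim56, linked to the DNA-sensing adaptor STING, went the other way at -0.26 (164 against 173, by 1 probe). Of this group of 9 genes, 7 were measured, with a median of 0.78. Among the 7, 6 were above 0, where 37.5% of all genes were, and 3 at least 2-fold higher, where 1.54% were. The 33 measured TRIM genes outside this group had a median of 0.05. Past 2-fold in either direction were 0 of them, where 2.53% of all genes were. The group was put together with earlier results of these data known, so these counts are a description.

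**Figure D2:**
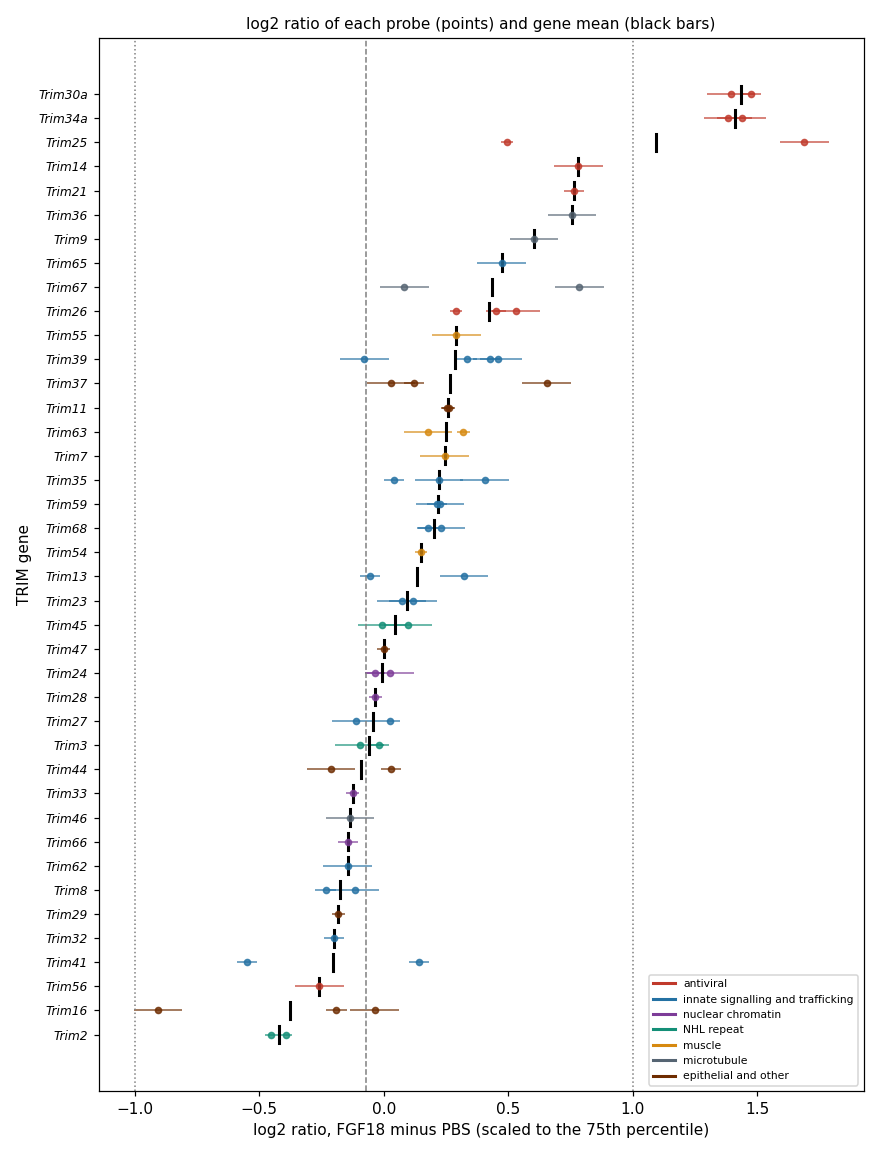
Scaled log2 ratio of every measured probe (points, with the median technical SD between spots at that signal as error bars) and the mean of each of the 40 genes (black bars). The dashed line is the median of all genes, -0.07, and the dotted lines mark 2-fold; Trim25 is the gene with the widest spread between probes, from 0.49 to 1.69.

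Several of these genes lie side by side on mouse chromosome 7. In RefSeq the order is Trim6, Trim34a, Trim5, Trim12a, Trim34b and Trim12c, and, after another coding gene, Trim30b, Trim30c, Trim30a and Trim30d. Members of this run did not share 1 level. Trim6 and Trim12a were not well above background on either array; the 5 probes of Trim6 had mean signals of 15.0 and 9.33. Of the genes that RefSeq now calls Trim but the array files name otherwise, Trim30d read 301 against 54.1, 4.90-fold higher over 2 probes at 1.97 and 2.61. Trim12c stood at -0.03 (67.9 against 61.2), and Trim5 and Trim30b were not well above background on either array. Trim34b and Trim30c were not analysed here. Trim30a and Trim30d, like Trim34a and Trim34b, are close copies, and a probe of one may also bind the transcript of the other, so their signals are uncertain as single-gene values.

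The interferon-stimulated response element is a known promoter site of interferon-induced genes, and promoters were searched for its core. The promoter of Trim9, also at least 1.5-fold higher, is not printed. Those printed are a selection of the TRIM genes at least 1.5-fold higher, with Trim30d, not chosen by the name rule, added. Each is 250 bases before and 50 after the annotated start, from RefSeq on GRCm38.p6, printed 5′ to 3′ on the gene's strand. Capitals mark a match to the core of that element, GAAA, any 2 bases and GAAA again, or its reverse complement, TTTC, any 2 bases and TTTC. Trim30a lies at chr7:104465144-104465443 (minus strand) and Trim30d at chr7:104507800-104508099 (minus strand). Trim34a lies at chr7:104244207-104244506 (plus strand), Trim21 at chr7:102565433-102565732 (minus strand) and Trim25 at chr11:88999153-88999452 (plus strand).
Trim30a: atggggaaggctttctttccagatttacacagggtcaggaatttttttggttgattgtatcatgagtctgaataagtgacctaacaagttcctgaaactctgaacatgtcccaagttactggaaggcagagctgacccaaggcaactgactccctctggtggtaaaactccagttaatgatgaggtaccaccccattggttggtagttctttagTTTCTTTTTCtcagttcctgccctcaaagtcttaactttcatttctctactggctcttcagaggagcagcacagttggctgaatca
Trim30d: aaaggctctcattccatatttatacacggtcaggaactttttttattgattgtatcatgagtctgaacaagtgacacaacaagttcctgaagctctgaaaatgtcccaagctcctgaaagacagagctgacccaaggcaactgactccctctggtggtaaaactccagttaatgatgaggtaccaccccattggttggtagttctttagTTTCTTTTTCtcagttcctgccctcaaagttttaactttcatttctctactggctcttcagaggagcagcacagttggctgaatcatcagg
Trim34a: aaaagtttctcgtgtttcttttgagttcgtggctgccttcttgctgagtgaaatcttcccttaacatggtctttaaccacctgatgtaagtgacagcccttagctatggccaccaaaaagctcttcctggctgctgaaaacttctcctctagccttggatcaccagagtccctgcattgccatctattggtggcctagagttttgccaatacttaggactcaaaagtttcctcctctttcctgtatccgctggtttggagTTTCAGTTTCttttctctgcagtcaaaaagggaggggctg
Trim21: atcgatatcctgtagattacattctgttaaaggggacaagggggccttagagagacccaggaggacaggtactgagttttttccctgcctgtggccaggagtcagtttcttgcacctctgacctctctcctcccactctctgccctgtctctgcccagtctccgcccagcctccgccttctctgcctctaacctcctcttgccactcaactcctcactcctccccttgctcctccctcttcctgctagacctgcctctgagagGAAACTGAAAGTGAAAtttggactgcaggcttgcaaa
Trim25: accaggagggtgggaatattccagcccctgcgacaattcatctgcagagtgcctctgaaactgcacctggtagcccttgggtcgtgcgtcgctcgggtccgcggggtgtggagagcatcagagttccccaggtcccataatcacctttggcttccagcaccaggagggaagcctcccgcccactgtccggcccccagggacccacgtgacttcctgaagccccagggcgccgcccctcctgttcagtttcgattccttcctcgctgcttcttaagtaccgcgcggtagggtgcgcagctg

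Trim30a held the core at positions -36 to -27 from the start site printed (3 to 12 from another annotated start), inside a run of 118 bases that it shares letter for letter with Trim30d. Trim34a held it at 11 to 20 and Trim21 held 2 matches that overlap, at 14 to 23 and 20 to 29. The Trim25 window and that of Trim9 (log2 ratio 0.60), which is not printed, held no match to these letters. Trim14 and Trim36 were not matched to the promoter table. Of the 7 TRIM genes at least 1.5-fold higher, 5 had a promoter in the table and 3 of these held the core. Of the 33 measured TRIM genes under 1.5-fold, 24 had a promoter and 2 held it. These were Trim26 (0.42), with 2 matches that overlap, and Trim2 (-0.42), the lowest ratio of the measured members. The core was also present in Trim12c (-29 to -20), which stood at -0.03, and in Trim12a (11 to 20) and Trim5 (-49 to -40), which were not well above background. For comparison, 1079 of all 27025 genes of the table (3.99%), in 3.44% of all promoters of this length, held it, as did 38 of 168 genes (22.6%) among all genes at least 2-fold higher. A core of the gamma-activated site, TTCNNNGAA, was found in 0 of the 5 and in 2 of the 24, against 9.55% of all genes of the table, or 8.30% of promoters. A match says only that the letters are present.

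**Figure D3:**
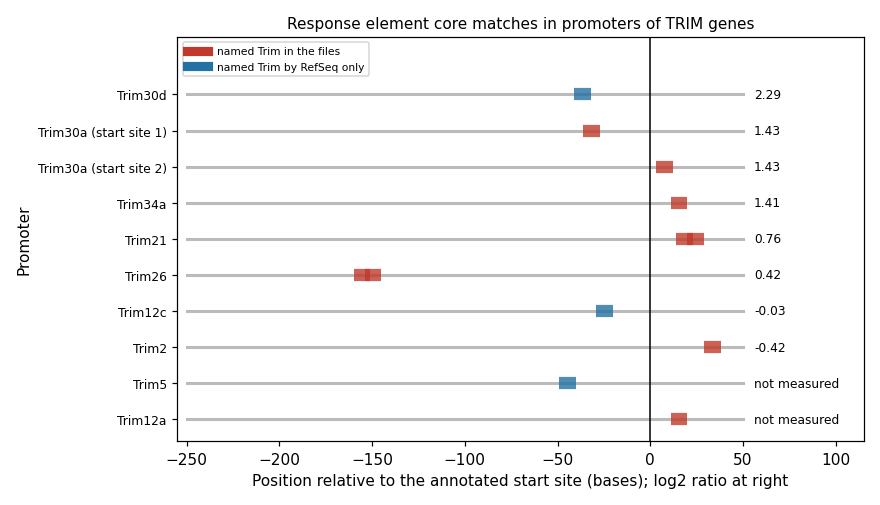
Positions of the response element core in the promoters of TRIM genes (horizontal axis, bases from the annotated start site), in red for genes the files name Trim and in blue for genes only RefSeq names so, with each gene's log2 ratio at the right. Matches sit within 50 bases of the start site in every promoter drawn except that of Trim26, where they lie between -160 and -145.

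Members of innate signalling and intracellular trafficking differed little. Of 13 genes, 12 were measured, with a median of 0.11 and a range from -0.20 to 0.47. Past 2-fold in either direction were 0, where 2.53% of all genes were. Trim65, which ubiquitinates the RNA sensor MDA5, was highest at 0.47 (274 against 174, by 1 probe). Trim41 was lowest at -0.20, as the mean of probes at -0.55 and 0.14 that pointed opposite ways. Between them lay Trim39 at 0.28, Trim35 at 0.22, Trim59 at 0.22 and Trim68 at 0.20. Trim13, a ligase of the endoplasmic reticulum membrane, was at 0.13 and Trim23, which also carries a GTPase domain, at 0.09. Trim27, Trim62 and Trim32 were at -0.04, -0.14 and -0.20. Trim8, which counteracts the cytokine inhibitor SOCS1, was at -0.18 over 2 measured probes. A further Trim8 probe, chosen after its value was seen, read 95.4 after PBS and 13.3, not well above background, after FGF18, at least 4.64-fold lower. It was designed to another transcript record than the remaining probes, which read 2460 against 2550 and 104 against 99.4. With that probe included, Trim8 was at -1.12.

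The members that act in chromatin were close to the median of all genes. Trim28, the corepressor that KRAB zinc finger proteins bring to DNA, was at -0.03 (7670 against 6920), and Trim24, a coregulator of nuclear receptors, was at -0.01 (459 against 406). Trim33, which acts on SMAD4 in TGF-beta signalling, was at -0.12, and Trim66 at -0.14. The range of these 4 genes was narrower than the 0.18 that the scaling itself contributes, and without scaling all 4 were above 0, at 0.04 to 0.17.

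The 4 members with a known role in skeletal muscle had ratios between 0.15 and 0.29 over the probes measured on both arrays. Trim63, Trim55 and Trim54, which encode the MuRF ligases of the sarcomere, were at 0.25, 0.29 and 0.15, and Trim7, which binds the glycogen primer glycogenin, was at 0.24 by 1 probe (137 against 102). The other Trim7 probe pointed the opposite way, at 36.5, not well above background, against 53.2 after PBS, at least 1.65-fold lower. With that probe included Trim7 was at -0.24. Trim54 read 9550 against 7590. The skeletal muscle markers, in the same samples, stood as follows: 9 of 9 were measured, with a median of 0.19. Of these markers 0 were past 2-fold in either direction, where 2.53% of all genes were. Their unscaled summed signal was 664402 against 558944. The markers did not move together: Actn3 was highest at 0.85, while Myh1, Tnnt3 and Tnni2 were at -0.21, -0.12 and -0.08. The part of the muscle markers in the result was not tested.

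The microtubule-associated members held the other genes past 1.5-fold. Trim36 read 78.7 against 41.1, 1.69-fold higher, and Trim9, a neuronal ligase of axon guidance, read 118 against 68.5, 1.52-fold higher. Both rested on 1 probe at a dim signal. Normexp correction brought them to 0.18 and 0.28, and the other 3 probes of Trim9 were not well above background on either array. Trim67, the close relative of Trim9, was at 0.43, from probes at 0.08 and 0.78. Trim46, which orders microtubules at the start of the axon, was at -0.13 (53.1 against 51.4).

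The lowest ratios of the family belonged to Trim2 and Trim16. Trim2, an NHL-repeat ligase of neurofilament, read 3740 against 4419, a log2 ratio of -0.42 (1.34-fold lower), with 2 measured probes at -0.45 and -0.39. Trim3 and Trim45, listed in the same role group, were at -0.06 and 0.05. Trim16, known from keratinocyte differentiation, was at -0.38, from 3 probes that ranged from -0.91 to -0.04. The widest departure came from its dimmest probe, at 34.6 against 57.2. Trim29, a member without a RING domain that is abundant in keratinocytes, read 27200 on both arrays, a scaled ratio of -0.18. Trim47 was at 0.00 (6000 against 5290), Trim11 at 0.26 over probes that differed by 0.0052, Trim37, a ligase of centriole control, at 0.27 and Trim44 at -0.09. The keratinocyte markers had a median of -0.30 and an unscaled summed signal of 610791 against 613280. Of these 8 markers 0 were past 2-fold in either direction, where 2.53% of all genes were. Their part in these ratios was not tested.

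**Figure D4:**
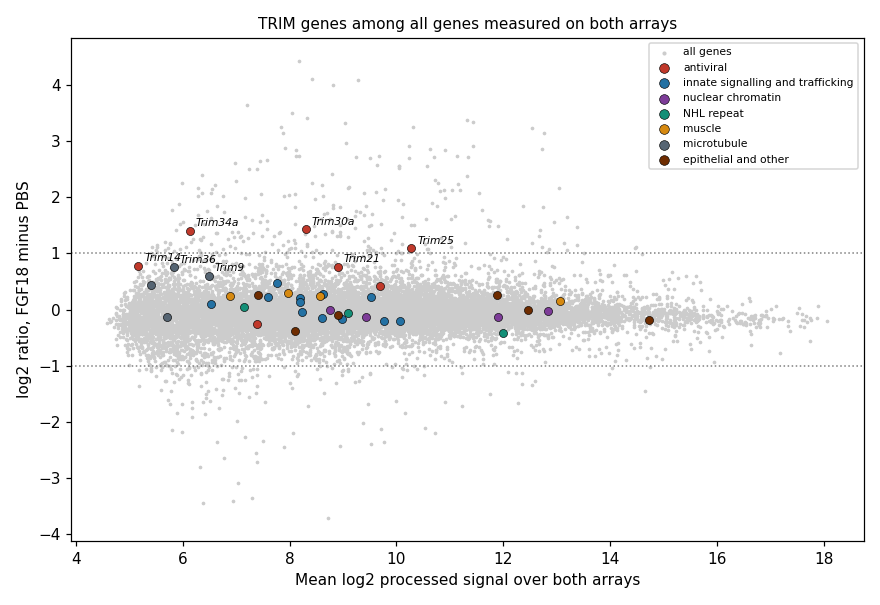
Scaled log2 ratio against mean log2 signal for all genes measured on both arrays (grey) and the 40 TRIM genes (coloured by role group), with the 2-fold lines dotted and the 7 genes at least 1.5-fold higher labelled. Trim30a, Trim34a and Trim25 lie above the upper line, and 0 TRIM genes lie below the lower one.

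Measured after FGF18 alone were Trim69 and Trim50. Trim69 read 54.0 against 28.5, which was not well above background, and was at least 1.67-fold higher. Trim50 read 41.1 against 21.7, at least 1.497-fold. The bound sets the bright signal against the higher of the dim probe's own value and the lowest signal well above background. The 10 genes on neither array were Trim6, Trim10, Trim12a, Trim15, Trim17, Trim31, Trim42, Trim52, Trim60 and Trim61, with mean signals of at most 23.0.

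TRIM proteins that carry other names were also read, from a list of 10 chosen with earlier results of these data known. Of these, 9 were on the array and 7 measured, with a median of -0.03. Past 2-fold in either direction were 0, where 2.53% of all genes were. Pml, the scaffold of nuclear bodies and itself a TRIM protein, was highest at 0.50 (766 against 477), and Mid2, a microtubule-bound ligase, was lowest at -0.34. Trim30d, which the array files also name otherwise, is not counted in this list and was 4.90-fold higher.

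TRIM ligases work with ubiquitin enzymes and, in part, with the ubiquitin-like modifier ISG15. All 19 listed genes of these pathways were measured, with a median of -0.01. Among them 5 were at least 2-fold higher, where 1.54% of all genes were, and 0 lower, where 0.987% were. This list and the next were also chosen with earlier results of these data known. The 5 were all of ISG15: the modifier Isg15 itself (4.78-fold), its activating enzyme Uba7 (3.01-fold), its conjugating enzyme Ube2l6 (7.18-fold), its ligase Herc6 (4.16-fold) and its protease Usp18 (4.41-fold). Of the ubiquitin-conjugating enzymes, Ube2n was at 0.01, Ube2d3 at -0.13 and Ube2w at -0.14. Ube2k was at -0.38 and Ube2e2, the lowest of the list, at -0.51. Of the 24 listed genes of RNA and DNA sensing and cytokine signalling on the array, 22 were measured on both, with a median of 0.31. Among them 6 were at least 2-fold higher and 0 lower, against 1.54% and 0.987% of all genes. Ddx58, which encodes RIG-I, the substrate of Trim25, was 2.26-fold higher, and Ifih1, which encodes MDA5, the substrate of Trim65, was 2.25-fold higher. Dhx58 (3.35-fold), Zbp1 (6.65-fold) and Irf7 (7.20-fold) were also among the 6. Of the adaptors downstream, Mavs was at 0.08 and Tab2 at 0.25, and Sting1 was lowest at -0.36. The cytokine genes Ifnb1 and Ifng were well above background after FGF18 alone, at 75.9 against 6.47 and 65.1 against 17.0, at least 2.77-fold and at least 2.37-fold.

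Some markers of immune cells were also higher after FGF18. The monocyte and macrophage markers had a median of 0.22 over 8 measured genes of 10 listed and a summed signal of 44900.2 against 23664, with Ly6c1 2.14-fold higher and Itgam 1.98-fold. Mrc1 was 1.63-fold lower, and Csf1r and Cd14 were at -0.31 and -0.27. Without Ly6c1, the brightest of the list, the summed signals were 9660 and 9122. All summed signals in this paragraph are unscaled, whereas scaling subtracts 0.18 from each log2 ratio, so sums that lie close together give no direction. The T and NK cell markers had a median of -0.22 over 8 of 10, with a summed signal of 1612 against 1208. Without Nkg7, the brightest of the list, the sums were 1041 and 924. In that list Prf1 was 3.34-fold and Klrk1 2.65-fold higher and Ncr1 at least 3.90-fold, while Cd4 stood at -0.68, Cd3g at -0.49 and Cd3e at -0.45, and Cd8a was not well above background on either array. The neutrophil markers had a median of 0.28 over 4 of 6 (2921 against 2243 summed), with S100a8 3.53-fold higher, Csf3r at 0.89, S100a9 at -0.34 and Cxcr2 1.52-fold lower. Without S100a9, the brightest of that list, the sums were 1281 and 413. The dendritic cell markers had a median of -0.16 over 5 of 6 (16529.5 against 7195 summed), with Bst2, itself known as an interferon-induced gene, 3.53-fold higher. Without Bst2 the summed signals were 2829 and 3775, with Cd207 1.67-fold lower, Xcr1 at -0.30 and Itgax at -0.16. Of 4 B cell markers 2 were measured, at 0.24 and 0.28 (130.5 against 95.6 summed), and Cd79a and Ms4a1 were not well above background. Fibroblast markers had a median of -0.47 over 6 (112886 against 126181 summed) and endothelial markers 0.02 over 4 (2132 against 1594 summed). The part of these cell types in the TRIM ratios was not tested.

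**Figure D5:**
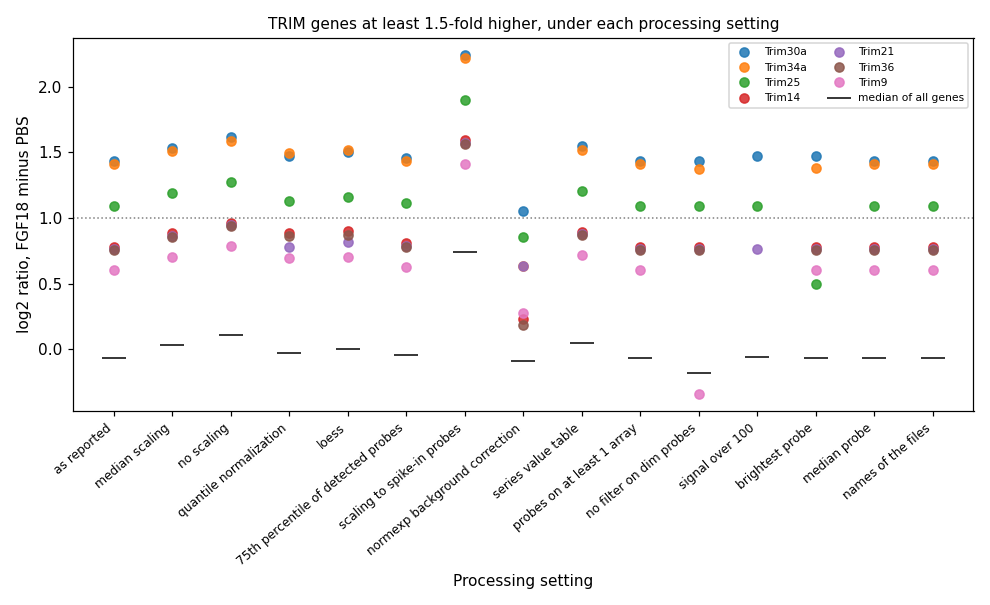
Log2 ratio of the 7 TRIM genes at least 1.5-fold higher (points) and the median of all genes (black bars) under the reported setting and 14 alternatives; a missing point means that the gene had no probe left or that points coincide (Trim34a and Trim21 at 0.63 with normexp). Trim30a stayed above the 2-fold line (dotted) in all 14, Trim34a was below it with normexp correction and Trim25 with normexp and with its brightest probe.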

How the data were processed

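Gene expression was measured on 2 single-colour Agilent arrays, 1 per group, with RNA pooled within a group per the design text. Per the file headers, Agilent Feature Extraction 9.5.3.1 quantified the images under protocol GE1-v5_95_Feb07, array design 014868. The deposited intensity values are a processed signal, background-subtracted and detrended per the file headers, and the mean and local background of each spot. The deposited files also hold flags for other properties of a spot (well above background, saturated, outlier, control). The deposited series value table is a ratio: checked against the scanner files, it is each array's processed signal over that array's median (83.8 for FGF18, 80.0 for PBS), linear and in the same direction, with column medians of 1.00 (FGF18) and 0.999 (PBS). No source used here gives further scaling by the authors. Of 43379 probe spots, 62.4% and 61.5% were well above background and 0 saturated.

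From these, log2 of the processed signal minus each array's 75th percentile (1020 and 899) was taken, without control and outlier spots. A probe was measured where at least 0.5 of its spots were well above background; the lowest such signals were 23.3 and 24.2. Log2 ratios of probes were averaged per gene. Trim30, Trim34 and Trim12 of the files were updated to Trim30a, Trim34a and Trim12a through RefSeq (GRCm38.p6, names and promoters); of the 52 genes, 39 had a promoter there. Probe coordinates are left out, since no build is named. No test was made, and counts use a fold of 2. The procedure was tested on simulated data (Python 3.11.15, limma 3.58.1 for normexp).

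Every member is accounted for. Named with values were members past 1.5-fold, the highest and lowest of each role group, the 5 brightest and those with disagreeing probes; other members, and context genes beyond the highest, the lowest and those past 2-fold, were named after their values were seen. Members, lists and groups were chosen with earlier results of these data known. Protein features, planned, were not analysed here. The value of 1 listed context gene is not reported here. Alternatives were other scalings, background correction, filters, probe rules, names, thresholds and the value table.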

Additional observations from a re-analysis of the deposited data

How the results depend on the processing

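Trim30a was at least 2-fold higher in 14 of 14 alternatives (log2 ratio 1.06 to 2.25), Trim34a in 12 of the 13 that measured it and Trim25 in 12 of 14. The number of TRIM genes past 2-fold, 3 as reported, was 1 with normexp background correction, 19 with scaling to 7 spike-in probes, 7 at a threshold of 1.5-fold and 0 at 3-fold. It was 2 to 4 in the other alternatives. With probes of at least 1 array, or no filter on dim probes, Trim8 was the lower gene among the 4. The median of all genes shifted by 0.10 with median scaling and by 0.18 without scaling. It shifted by 0.11 with the series value table and by 0.81 with spike-in scaling, and the TRIM values moved with these shifts. Without a filter on dim probes the shift was -0.11, over a larger set of 27576 genes. TRIM genes whose probes were all measured as reported, such as Trim30a at 1.43, kept their ratios there. The median of the measured TRIM genes, 0.14 as reported, was 0.24 with median scaling, 0.32 without scaling, 0.95 with spike-in scaling, 0.0269 with normexp, 0.26 with the series value table, 0.0197 for signals over 100 and -0.0067 without a filter on dim probes. Set against the median of all genes it stayed higher in these, by 0.08 to 0.21. The median of the antiviral members, 0.78 as reported, was 0.88 with median scaling and with quantile normalization, 0.96 without scaling, 0.90 with loess, 1.59 with spike-in scaling, 0.63 with normexp and 0.89 with the series value table. Trim9 turned to -0.34 without a filter on dim probes, and Trim7 to -0.24 there and with probes of at least 1 array. Small negative ratios such as those of Trim24, Trim28 and Trim27 changed sign in 6 to 7 of the 14 alternatives. In the share of all genes past 2-fold, 1.41% were called with normexp and 16.3% with spike-in scaling, against 2.53%. No paired analysis was possible because each group has 1 array. Signal over background limits Trim9, Trim14, Trim23, Trim34a, Trim36, Trim46 and Trim67, whose PBS signals were under 100. The cause of the differences between settings was not tested.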
